A study of Spodoptera litura with 9 samples.

Results

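The moth Spodoptera litura, the tobacco cutworm, carries paired testes that fuse around pupation, and testis RNA was compared before, during and after this fusion. Here 208 long non-coding RNA (lncRNA) transcripts that carry identifiers of the reference annotation are described. The lncRNA table held 2476 transcripts, 557 of them with reference identifiers and 1919 from a transcript assembly. A transcript was kept when its identifier was a reference one and its mean count over the 9 libraries was 10 or more, which held for 232, and transcripts with identical values in every library were counted once, which removed 24. The members were thus chosen by their level and not by their change. The values next inside the limit were mean counts of 10.1 for XR_002696593.1 and 10.2 for XR_002696606.1, and those next outside were 9.89 for both XR_002696865.1 and XR_002696985.1.

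The animals were reared on an artificial diet at 1 temperature and day length. Testes came from larvae of the sixth instar at 4 days of age (L6D4, before fusion), from prepupae of the same instar at 6 days (L6D6, while fusing) and from pupae at 0 days (P0D, after fusion), with 3 libraries per stage. In these samples fusion, age and the passage from larva to pupa go together and cannot be told apart. The labels name 9 males and 3 repeats per stage without saying whether a repeat was 1 animal or a pool, and p-values thus reflect library-to-library spread only, which may be technical. The molecule label reads polyA RNA, whereas the extraction protocol describes removal of ribosomal RNA and strand-marked libraries. The table holds no coding transcripts, so testis, fat body or haemocyte markers could not be looked up, and the coding and small RNA of the series were not analysed here.

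LncRNAs are long transcripts without a recognised protein product. Known ones act in cis on neighbouring genes, act as scaffolds for proteins and chromatin, or bind small RNAs, and for many no function is known. Testis is known across animals as a tissue with many lncRNAs, and in Drosophila several testis lncRNAs are needed for late sperm development. The moth testis begins as a pair of organs that meet and join around pupation while meiosis and sperm formation go on inside.

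For 112 members a table of RefSeq genes of the assembly ASM270686v4 gave a gene, 105 genes in all, and 96 members had no entry there. Of the 112, 110 belonged to lncRNA genes and 2 to genes listed as protein coding (XR_002696741.1 of LOC111350830 and XR_002697203.1 of LOC111361109). In that assembly 28 members overlapped a coding gene, 71 lay between coding genes and 11 were not placed. The 96 members without an entry are named by identifier alone. The sources used here do not say whether counting used the strand, so the levels of members that overlap another gene are uncertain.

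Library totals ran from 2665569 to 4262524 lncRNA counts, and the members held 34.6% to 36.2% of them at L6D4, 34.1% to 35.2% at L6D6 and 29.2% to 34.5% at P0D. At least 1 count was found for 198 to 203 members at L6D4, 207 to 208 at L6D6 and 203 to 207 at P0D. A count in every library was found for 188 members, and 2 had no count in a whole stage. Library P0D-3 had the lowest share and the highest TMM factor, the scaling for composition (1.45, against 0.741 to 1.13 in the others). It also gave the lowest level of the 9 libraries for 52 tested members, against 12 to 28 in the others, and L6D4-3 gave the highest level for 48, against 10 to 27. Across members, correlations of log2 levels were 0.930 to 0.980 between L6D4 libraries, 0.951 to 0.974 between L6D6 libraries and 0.949 to 0.966 between P0D libraries. Between stages they were 0.857 to 0.900 for L6D4 and L6D6, 0.897 to 0.942 for L6D6 and P0D, and 0.826 to 0.879 for L6D4 and P0D. These are correlations across transcripts, which are not independent replicates.

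Counts were spread very unevenly over the members. The mean count was 10 to 100 for 103 members, 100 to 1000 for 71, 1000 to 10000 for 27 and 10000 or more for 7, with a median of 103.8. The 5 members with the most counts took 82.2% to 91.2% of all member counts of a library. Transcript lengths are not in the table, so these are shares of counts and not an order of molecules. Levels below are CPM, counts scaled to a common size of the libraries' lncRNA counts after TMM scaling.

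The largest share belonged to XR_002696881.1 of the gene LOC111353488, which took 17.3% to 26.5% of the whole table in each library, with the lowest value in P0D-3. It stood at 269916, 269899 and 358311 CPM at L6D4, 232888, 218357 and 202803 CPM at L6D6 and 286170.0, 211115 and 119565 CPM at P0D. The P0D libraries spread across the range of L6D6 and into that of L6D4, and the test for any difference between the stages did not pass (adjusted p = 0.332 in edgeR's quasi-likelihood test with Benjamini-Hochberg adjustment). The next, XR_002696880.1 of LOC111353481, stood at 44488, 49599 and 54278 CPM at L6D4, 41870.3, 41221 and 35609 CPM at L6D6 and 52952, 39098 and 28544 CPM at P0D and missed the threshold as well (edgeR adjusted p = 0.483). Another gene, LOC111353389, whose member XR_002696874.1 averaged 1159 ± 180.3, 1141 ± 39.7 and 1214 ± 324 CPM at the stages in order (mean ± SD, n = 3), lies with these 2 genes between the same pair of coding genes, LOC111353292 and LOC111353540. None of the 3 passed the test between any stages.

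Of the 5 members with the most counts, XR_002696821.1 alone passed the test for any difference (edgeR adjusted p = 0.0012). It stood at 22352, 18338 and 22940.2 CPM at L6D4, 12475, 14649.7 and 13432 CPM at L6D6 and 10480.3, 9568 and 8732 CPM at P0D. No library of a later stage reached a library of an earlier one, so the level was lower at each stage in turn. From L6D4 to L6D6 the log2 change was -0.65 (SE 0.17, edgeR adjusted p = 0.018), a call that was lost under library totals, the replicate block and the leaving out of L6D4 replicate 1 or 3 or any L6D6 replicate (adjusted p 0.0544 to 0.172). The step from L6D6 to P0D missed the threshold (log2 change -0.49, SE 0.17, edgeR adjusted p = 0.243), and over the whole interval the level fell by 1.14 on the log2 scale (SE 0.17, edgeR adjusted p = 4.80e-04). XR_002696873.1 averaged 5680.4 ± 783, 5246 ± 328 and 5189 ± 1144 CPM in the order of the stages (mean ± SD, n = 3; edgeR adjusted p = 0.84). XR_002697352.1 of LOC111364459 averaged 3842 ± 299, 4573 ± 443 and 5554 ± 628 CPM at the stages in order (mean ± SD, n = 3), missed the threshold for any difference (edgeR adjusted p = 0.072) and was called higher at P0D than at L6D4 (log2 change 0.53, SE 0.16, edgeR adjusted p = 0.0294). That call was lost in 7 alternatives, among them those that left out L6D4-1, L6D4-3, L6D6-2, P0D-1 or P0D-2 (adjusted p 0.0518 to 0.103).

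Between L6D4 and L6D6, 55 of the 206 members tested changed, 27 higher and 28 lower at L6D6 (26.7%). Over all 1913 lncRNAs tested the same rule called 22.1%, with 13.0% higher and 9.15% lower. The median size of the log2 change was 0.46 over the tested members and 0.43 over all lncRNAs, so the 2 medians lay close together. Of the 55, 38 changed at least 2-fold, against 319 of the 423 called over all lncRNAs. Levels did not overlap between the stages for 89 tested members (43.2%, against 42.3% of all). The remaining 2 members, XR_002696593.1 and XR_002696700.1, had too few counts to be tested. Scaling by library totals alone gave 38 higher and 12 lower, with the median log2 change of all lncRNAs at 0.31 in place of -0.02, so the balance of rises and falls depended on the scaling. Counts of calls were 36 to 62 when 1 library was left out, the lowest without L6D6 replicate 2 and the highest without P0D replicate 3, and 43 without L6D4 replicate 3. In whole testes, fewer cells of a type and less RNA per cell cannot be told apart. Of the 55 calls, 27 passed in each of the 18 alternative analyses and none changed sign. The test for any difference between the stages called 60 of 206 (29.1%), against 24.8% of all lncRNAs.

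**Figure D1:**
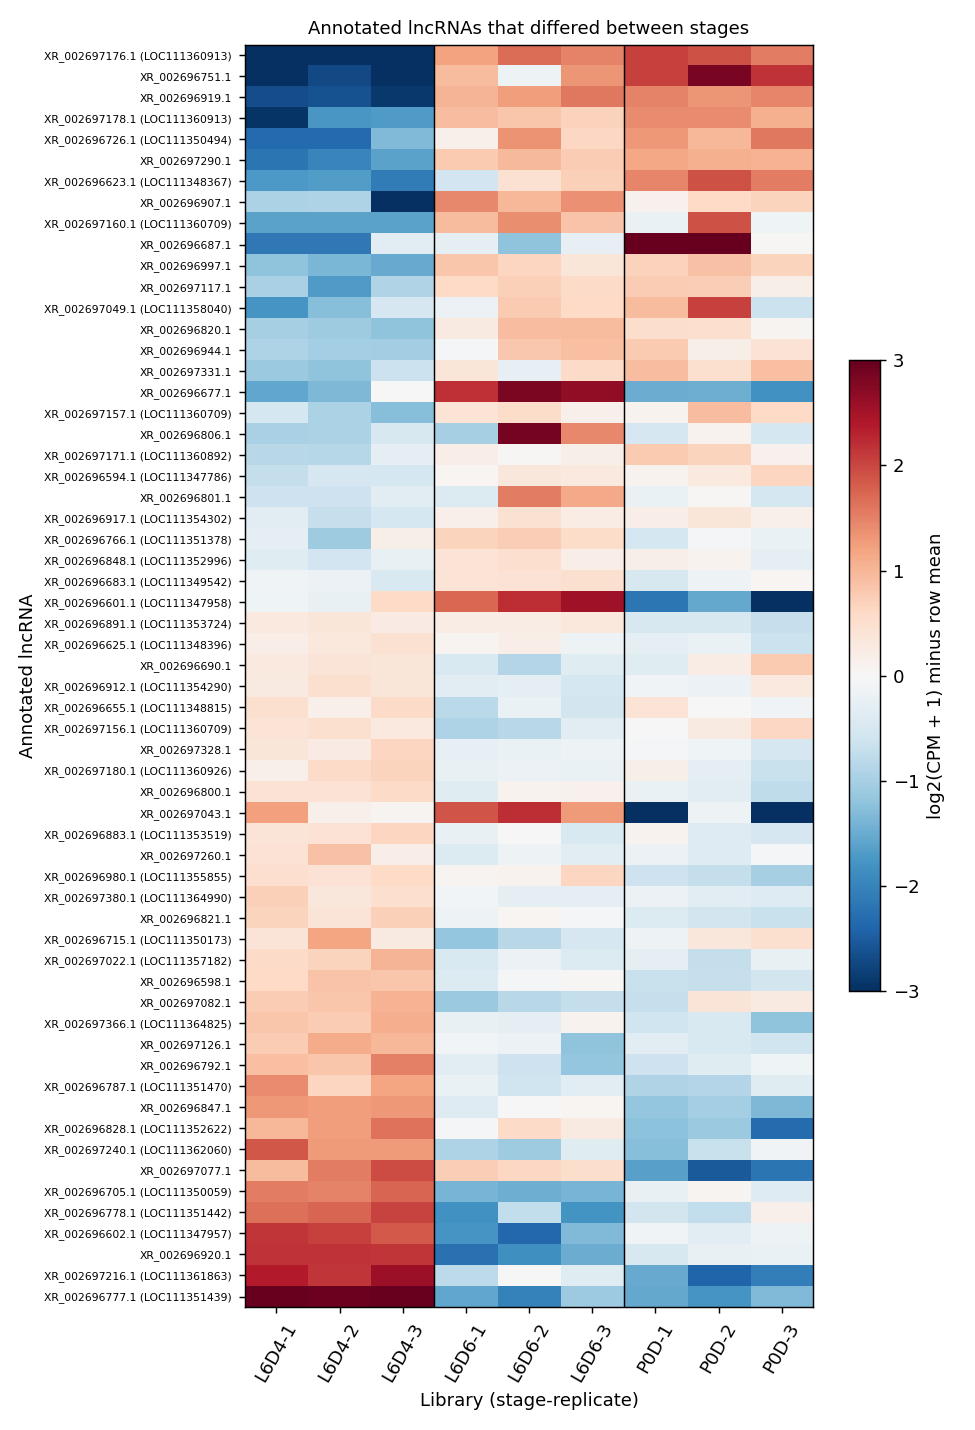
Level of each of the 60 members that differed between stages, as log2(CPM + 1) minus the member's mean over the 9 libraries (red above, blue below), with libraries in columns and members in rows ordered from those highest after L6D4 to those highest at L6D4. The highest mean was at L6D4 for 32 members, at L6D6 for 14 and at P0D for 14. This split was not made for all lncRNAs, and the balance of rises and falls depended on the scaling.

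Among the rises at L6D6 the smallest adjusted p belonged to XR_002696919.1, which has no entry in the RefSeq table. It stood at 181, 188 and 154 CPM at L6D4, 2329, 2748 and 3445 CPM at L6D6 and 3223, 2877 and 3160.2 CPM at P0D. Every L6D6 and P0D library was more than 10-fold above every L6D4 library, and the L6D6 and P0D ranges overlapped. The log2 change was 4.02 at L6D6 (SE 0.20, edgeR adjusted p = 1.12e-07) and 0.12 from L6D6 to P0D (SE 0.17, edgeR adjusted p = 0.885). XR_002697290.1, also without an entry, moved at the same step from a lower level. It stood at 13.9, 16.1 and 21.3 CPM at L6D4, 114, 131 and 114 CPM at L6D6 and 149, 141 and 138 CPM at P0D, and the L6D4 libraries lay below all others. Its log2 change was 2.82 at L6D6 (SE 0.21, edgeR adjusted p = 3.03e-06).

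XR_002696751.1 had few counts before fusion and passed the limit on the mean count through L6D6 and P0D. It stood at 0.295, 1.05 and 0.506 CPM at L6D4, 24.7, 10.99 and 32.4 CPM at L6D6 and 54.6, 94.7 and 59.3 CPM at P0D, so the 3 stages did not overlap. The fitted log2 change was 5.13 at L6D6 (SE 0.59, edgeR adjusted p = 8.29e-05) and 6.75 over the whole interval (SE 0.58, edgeR adjusted p = 8.37e-06), while the step from L6D6 to P0D missed the threshold (log2 change 1.62, SE 0.37, edgeR adjusted p = 0.056). XR_002696997.1 and XR_002697117.1 rose at the same step. XR_002696997.1 averaged 17.7 ± 2.05 CPM at L6D4, 72.7 ± 11.6 CPM at L6D6 and 79.3 ± 6.49 CPM at P0D (mean ± SD, n = 3), and its log2 change at L6D6 was 2.03 (SE 0.21, edgeR adjusted p = 4.23e-05). XR_002697117.1 averaged 7.15 ± 2.25, 26.95 ± 1.36 and 26.2 ± 5.86 CPM at the stages in order (mean ± SD, n = 3), with a log2 change of 1.92 (SE 0.30, edgeR adjusted p = 6.59e-04). These 2 were picked after their values had been seen.

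Some risers had almost no counts at L6D4. XR_002696726.1 of LOC111350494 lies beside Ada2b, whose Drosophila product is an adaptor of a histone acetyltransferase complex. It stood at 0, 0 and 1.01 CPM at L6D4, 4.56, 11.7 and 6.65 CPM at L6D6 and 11.3, 8.93 and 14.1 CPM at P0D. The ratio of L6D6 to L6D4 over the summed counts was 32.2 (95% interval 8.65 to 269.6), covering counting error only. XR_002696623.1 of LOC111348367 lies beside Cad86C, a cadherin gene whose Drosophila product is a cell adhesion protein. It stood at 0.295, 0.351 and 0 CPM at L6D4, 1.88, 4.91 and 6.10 CPM at L6D6 and 10.8, 15.1 and 11.4 CPM at P0D, and the ratio of L6D6 to L6D4 was 17.7 (95% interval 4.64 to 150.0). XR_002696623.1 passed the limit on the mean count chiefly through P0D, and XR_002696726.1 passed it through L6D6 and P0D. Their changes are thus not independent of the choice of members. Both passed the test (edgeR adjusted p = 0.00184 and 0.0025). The table does not hold the coding neighbours, so no value of theirs can be set beside these.

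XR_002696677.1 rose and fell back. It stood at 4.43, 5.26 and 15.2 CPM at L6D4, 71.6, 113 and 100.1 CPM at L6D6 and 4.69, 4.85 and 3.53 CPM at P0D, so the L6D6 libraries lay far above all others. On the log2 scale the change was 3.58 into L6D6 (SE 0.41, edgeR adjusted p = 7.96e-05) and -4.44 out of it (SE 0.42, edgeR adjusted p = 6.83e-05). XR_002696601.1 of LOC111347958, which lies between the coding genes c12.2 and LOC147877706, had the same outline with a lower end point. It stood at 21.3, 19.98 and 35.96 CPM at L6D4, 80.2, 112 and 141 CPM at L6D6 and 4.42, 7.40 and 2.02 CPM at P0D, and no stage overlapped another. Its log2 change was 2.12 into L6D6 (SE 0.38, edgeR adjusted p = 0.00171) and -4.58 from L6D6 to P0D (SE 0.43, edgeR adjusted p = 6.83e-05). XR_002696907.1 rose and stayed above its start. It stood at 4.14, 4.21 and 0 CPM at L6D4, 26.01, 18.9 and 24.7 CPM at L6D6 and 9.93, 14.04 and 14.9 CPM at P0D, with a log2 change of 2.93 at L6D6 (SE 0.55, edgeR adjusted p = 0.0025).

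Other members fell at L6D6. XR_002696920.1, without an entry, stood at 836, 830.2 and 815 CPM at L6D4, 38.6, 50.7 and 65.4 CPM at L6D6 and 133, 158 and 162 CPM at P0D. The 3 stages did not overlap, and P0D lay between the others. The log2 change was -4.00 into L6D6 (SE 0.21, edgeR adjusted p = 1.45e-07) and 1.55 from L6D6 to P0D (SE 0.19, edgeR adjusted p = 5.63e-04). XR_002696705.1 of LOC111350059 followed the same path. It stood at 316, 308 and 365 CPM at L6D4, 41.02, 38.8 and 40.5 CPM at L6D6 and 92.7, 116 and 83.01 CPM at P0D, with a log2 change of -3.04 into L6D6 (SE 0.18, edgeR adjusted p = 5.88e-07) and 1.28 out of it (SE 0.18, edgeR adjusted p = 0.00133). XR_002696602.1 of LOC111347957 also dropped and partly returned. It stood at 58.8, 55.4 and 47.6 CPM at L6D4, 2.95, 1.64 and 4.44 CPM at L6D6 and 11.6, 9.70 and 11.1 CPM at P0D, with no overlap between stages. The fitted log2 change was -4.17 into L6D6 (SE 0.33, edgeR adjusted p = 4.37e-06) and 1.85 after it (SE 0.33, edgeR adjusted p = 0.00891). The second of these was lost under library totals (adjusted p = 0.0569) and with only the 2 stages fitted (adjusted p = 0.0565).

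Further falls were followed by no called rise. XR_002696777.1 of LOC111351439 stood at 70.03, 52.2 and 54.2 CPM at L6D4, 1.34, 0.701 and 2.22 CPM at L6D6 and 1.38, 1.02 and 1.77 CPM at P0D. Every L6D4 library lay above all later ones, and the later stages overlapped. Its log2 change at L6D6 was -5.37 (SE 0.37, edgeR adjusted p = 1.79e-06). This member passed the limit on the mean count through L6D4, so its fall is not independent of the choice of members. XR_002696778.1 of LOC111351442 lies beside kin17, whose relatives in mammals bind DNA and RNA. It stood at 18.9, 20.3 and 24.8 CPM at L6D4, 0.804, 2.81 and 0.832 CPM at L6D6 and 3.31, 2.81 and 6.06 CPM at P0D, with a log2 change at L6D6 of -3.78 (SE 0.51, edgeR adjusted p = 2.43e-04). XR_002697240.1 of LOC111362060 averaged 69.96 ± 17.2, 13.96 ± 4.05 and 15.5 ± 6.44 CPM at the stages in order (mean ± SD, n = 3), with a log2 change of -2.33 at L6D6 (SE 0.34, edgeR adjusted p = 4.04e-04). XR_002696792.1 and XR_002697082.1 fell by 1.89 and 1.87 on the log2 scale (SE 0.33 and 0.32, edgeR adjusted p = 0.00151 and 0.00134).

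**Figure D2:**
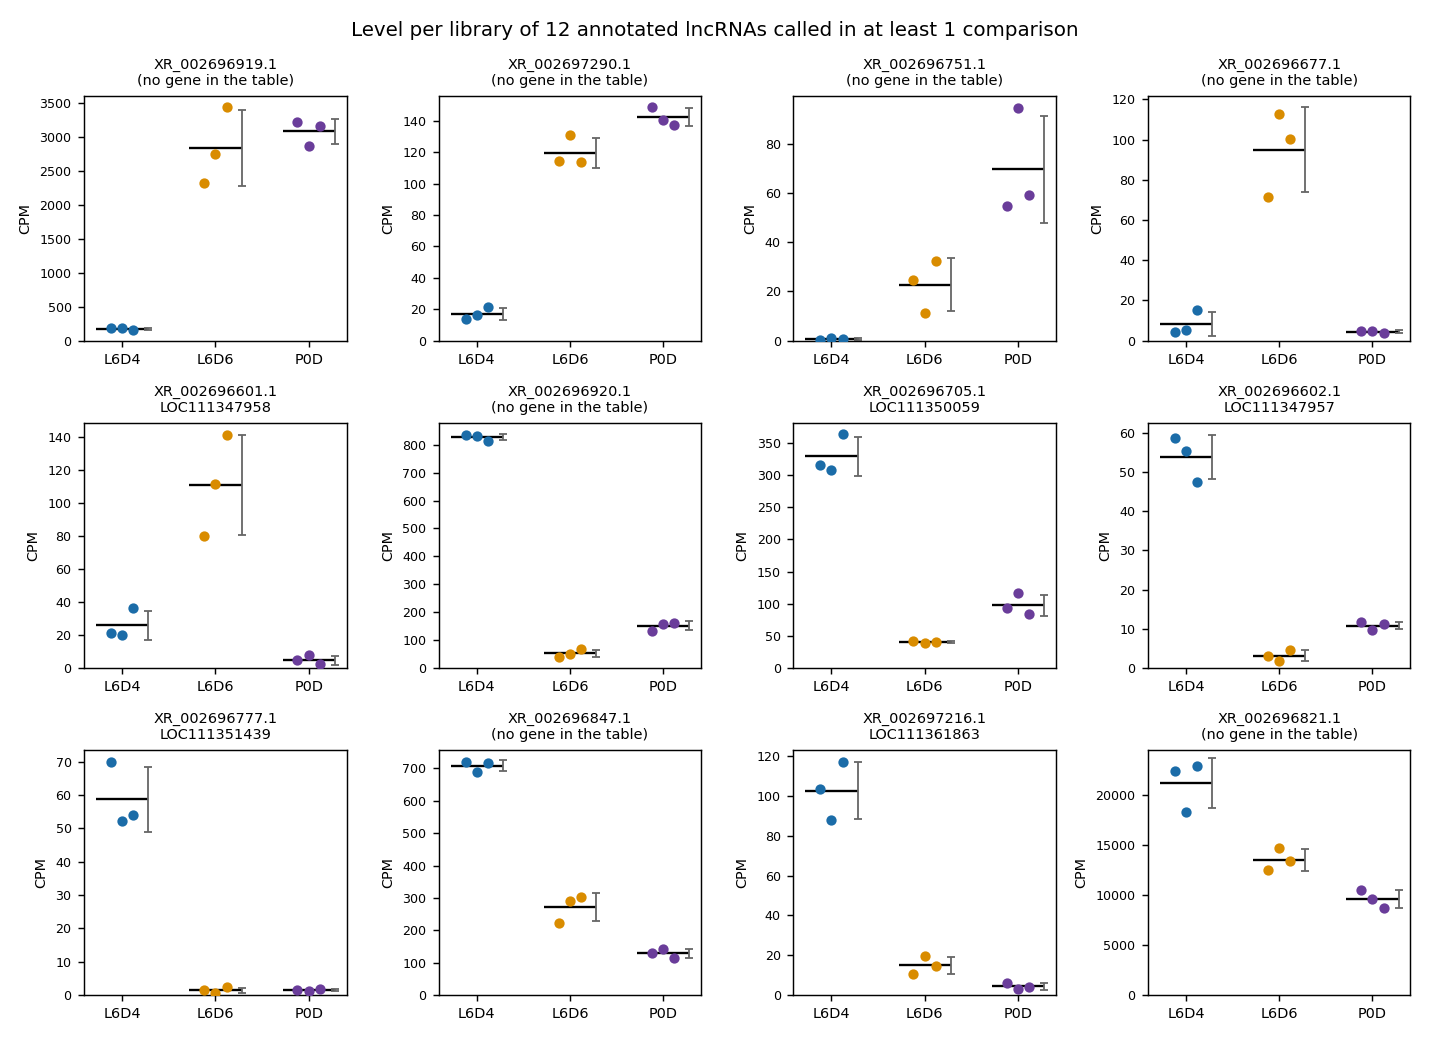
Level in CPM of 12 members in each library, with points for libraries grouped by stage, a bar at the mean and lines for 1 SD of the 3 libraries. XR_002696919.1 and XR_002697290.1 lie low at L6D4 and high afterwards, XR_002696677.1 and XR_002696601.1 are high at L6D6, and XR_002696920.1 and XR_002696705.1 are lowest there.

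Fewer members moved between L6D6 and P0D. The test called 10 of 206 (4.85%), 3 higher and 7 lower, against 1.78% of all lncRNAs (0.470% higher and 1.31% lower), and an unadjusted p under 0.05 was found for 41 of 206 members and 223 of all 1913 lncRNAs. Levels did not overlap for 46 tested members (22.3%, against 17.4% of all). The 3 that rose, XR_002696920.1, XR_002696705.1 and XR_002696602.1, had each fallen at the step before and ended at P0D below L6D4. This comparison shares its L6D6 libraries with the one before, so a chance deviation there would move the 2 steps in opposite directions. Without P0D replicate 3 the count was 11. Of the 10 calls, 6 passed in each of the 18 alternative analyses.

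Of the 7 that fell, XR_002697077.1 reached the edge of detection. It stood at 10.05, 15.4 and 21.3 CPM at L6D4, 8.58, 7.72 and 7.21 CPM at L6D6 and 0.828, 0 and 0.252 CPM at P0D. On the log2 scale the change was -4.35 from L6D6 to P0D (SE 0.65, edgeR adjusted p = 0.0025), and the step before missed the threshold (log2 change -0.98, SE 0.46, edgeR adjusted p = 0.159). This member passed the limit on the mean count through L6D4 and L6D6. XR_002696847.1 was lower at each stage in turn. It stood at 720.4, 689 and 716 CPM at L6D4, 221, 292 and 303 CPM at L6D6 and 129, 142 and 114 CPM at P0D, and no stage overlapped another. The log2 change was -1.38 into L6D6 (SE 0.16, edgeR adjusted p = 9.50e-05) and -1.08 out of it (SE 0.16, edgeR adjusted p = 0.0025). XR_002697216.1 of LOC111361863 also declined at both steps. It stood at 103, 88.00 and 117 CPM at L6D4, 10.7, 19.4 and 14.7 CPM at L6D6 and 6.07, 2.81 and 3.78 CPM at P0D, with log2 changes of -2.77 (SE 0.29, edgeR adjusted p = 4.23e-05) and -1.83 (SE 0.32, edgeR adjusted p = 0.00891). The second was lost without L6D6 replicate 2 (adjusted p = 0.0561) or P0D replicate 2 (adjusted p = 0.0647).

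Like XR_002697077.1, the members XR_002696891.1 and XR_002696980.1 had no called change at L6D6 and a called fall after it. XR_002696891.1 of LOC111353724 overlaps Snoo, whose Drosophila product modulates signalling by the TGF-beta family. It stood at 95.7, 99.9 and 92.2 CPM at L6D4, 91.7, 90.7 and 97.3 CPM at L6D6 and 55.7, 55.1 and 47.4 CPM at P0D, so P0D lay below all other libraries. The log2 change from L6D6 to P0D was -0.82 (SE 0.17, edgeR adjusted p = 0.0289), but this call was lost in 11 of the 18 alternatives, including those without any 1 L6D6 or P0D replicate and without L6D4 replicate 1 (adjusted p 0.0524 to 0.182 over the 11). Against L6D4 the change at P0D was -0.86 (SE 0.17, edgeR adjusted p = 0.0031), a call lost under library totals (adjusted p = 0.122). XR_002696980.1 of LOC111355855 stood at 149.5, 142 and 161 CPM at L6D4, 112, 114 and 167 CPM at L6D6 and 67.9, 63.5 and 52.2 CPM at P0D, with a log2 change of -1.09 after L6D6 (SE 0.20, edgeR adjusted p = 0.0131). That call was lost without L6D6 replicate 3 (adjusted p = 0.0618), without P0D replicate 2 (adjusted p = 0.0703), under library totals (0.0522) and under the replicate block (0.0509).

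**Figure D3:**
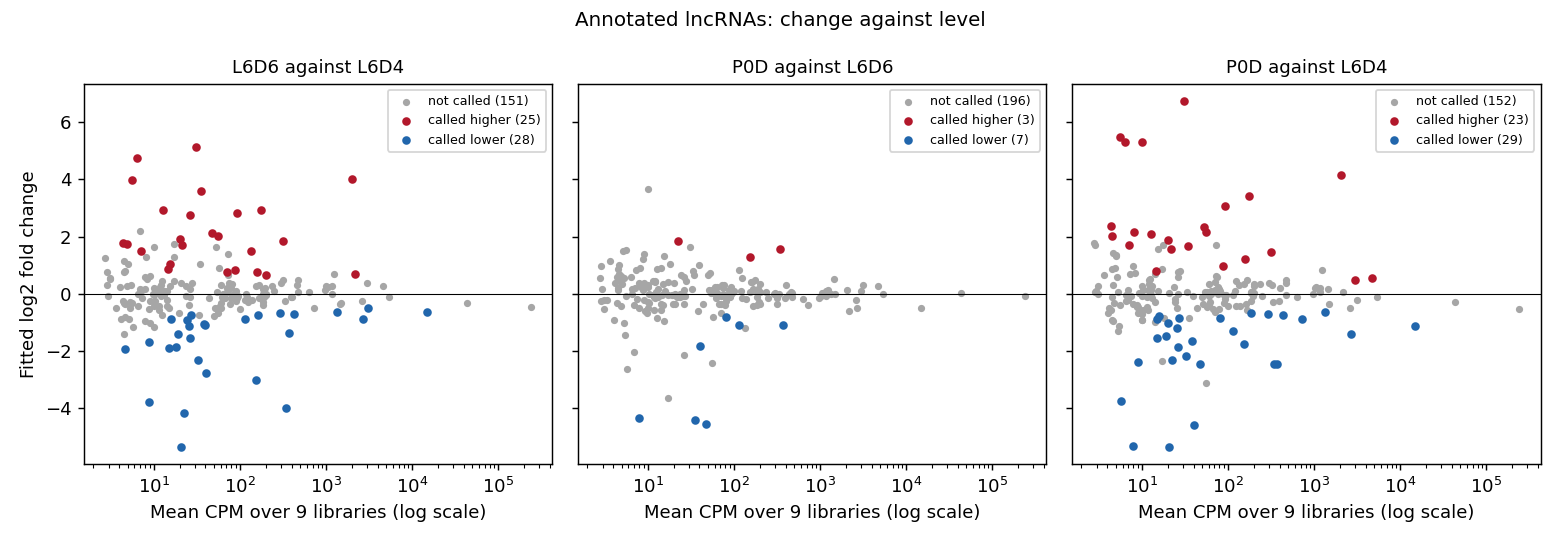
Fitted log2 fold change against mean CPM (log scale) for each tested member in the 3 pairwise comparisons, with members called higher in red, called lower in blue and others in grey. Members with a stage at 0 counts, 2 each in the L6D6 against L6D4 and the P0D against L6D4 comparison, are not drawn, and the middle comparison holds the fewest called members (10).

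Between L6D4 and P0D, the ends of the interval, 54 of 206 tested members changed (26.2%), 25 higher and 29 lower at P0D, against 26.6% of all lncRNAs (14.1% higher and 12.5% lower). Levels did not overlap for 78 tested members (37.9%, against 38.6% of all). Library totals gave 43 higher and 18 lower, with the median log2 change of all lncRNAs at 0.40 in place of 0.01. This comparison shares libraries with both others. Without P0D replicate 3, 33 were higher and 25 lower. Of the 54 calls, 33 passed in each of the 18 alternative analyses.

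A few members were called in this comparison and at neither step. XR_002696828.1 of LOC111352622 lies beside Lamtor5, whose mammalian product is a subunit of a lysosomal complex that regulates growth signalling. It stood at 8.86, 10.9 and 14.2 CPM at L6D4, 3.75, 6.31 and 4.99 CPM at L6D6 and 1.10, 1.28 and 0 CPM at P0D. The log2 change over the interval was -3.78 (SE 0.67, edgeR adjusted p = 0.0015), and no stage overlapped another. XR_002696687.1 stood at 0, 0 and 2.53 CPM at L6D4, 2.68, 0.935 and 2.77 CPM at L6D6 and 42.5, 35.5 and 3.53 CPM at P0D, with a log2 change of 5.31 (SE 1.14, edgeR adjusted p = 0.00489). Its level at P0D came from replicates 1 and 2, P0D-3 lay near the other stages, and limma-voom did not call it (adjusted p = 0.0971). This member passed the limit on the mean count through P0D, so its rise is not independent of the choice of members. XR_002696741.1, the transcript of the gene listed as coding, stood at 0.886, 1.05 and 4.05 CPM at L6D4, 3.75, 3.27 and 5.27 CPM at L6D6 and 6.35, 11.99 and 4.04 CPM at P0D, and its call for a higher level at P0D (edgeR adjusted p = 0.0402) was lost in 9 alternatives, among them those that left out L6D4-1, L6D4-2, P0D-1, P0D-2 or any library of L6D6 (adjusted p 0.0591 to 0.19).

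When L6D6 was set against the mean of the stages on either side, 30 of 206 tested members stood apart (14.6%), 18 above and 12 below, against 7.79% of all lncRNAs (5.49% above and 2.30% below). This count was 16 to 28 when 1 library was left out, 19 without L6D4 replicate 1, 16 without L6D6 replicate 1 or 2 and 17 without L6D6 replicate 3. Library totals gave 16 above and 5 below. The 3 largest excesses were those of XR_002697176.1, XR_002696677.1 and XR_002697160.1. XR_002697176.1 and XR_002697160.1 had no count at L6D4, so the size of their excess is rough. The call for XR_002697160.1 was lost in 10 alternatives (adjusted p 0.0513 to 0.168). XR_002696677.1 stood 4.01 above on the log2 scale (SE 0.32, edgeR adjusted p = 7.00e-06), and XR_002696601.1, not among the 3, stood 3.35 above (SE 0.31, edgeR adjusted p = 3.39e-05). XR_002696602.1 and XR_002696920.1 stood lowest, at -3.01 (SE 0.30, edgeR adjusted p = 5.74e-05) and -2.78 (SE 0.19, edgeR adjusted p = 2.07e-06). The measure also picks members whose levels at L6D6 and P0D were alike, since the mean of L6D4 and P0D then lies between. XR_002696919.1 was one of these (1.95, SE 0.14, edgeR adjusted p = 4.27e-06), so the count is not one of transcripts particular to the fusing stage. XR_002697043.1 differed between the stages (edgeR adjusted p = 0.0336) with no pairwise call. It stood at 22.8, 10.2 and 9.62 CPM at L6D4, 36.5, 45.6 and 23.6 CPM at L6D6 and 0, 8.17 and 0 CPM at P0D, and only P0D-2 had counts at P0D.

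Members of 4 genes came as 2 or more transcripts, 11 in all, and their shares of the gene's member counts were compared. With 3 libraries against 3 the two-sided exact permutation test cannot give p under 0.1, and over the 33 tests the smallest adjusted p was 0.206, so no shift in share passed. The shares of 8 transcripts did not overlap between L6D4 and P0D. The sources used here do not say how reads that transcripts share were divided, and reads of 1 gene cannot be taken as independent between its transcripts.

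In LOC111360709, a gene beside Flo1, whose Drosophila product is a flotillin of membrane microdomains, XR_002697156.1 held 92.3%, 94.9% and 95.7% of the member counts at L6D4, 58.2%, 54.7% and 71.4% at L6D6 and 81.0%, 65.4% and 82.7% at P0D. XR_002697160.1 was without counts throughout L6D4 and stood at 4.83, 7.01 and 4.44 CPM at L6D6 and 1.66, 10.5 and 1.77 CPM at P0D. With 3 counts over L6D4 taken as the floor, its L6D6 level was at least 15.1-fold higher (edgeR adjusted p = 0.00782). It passed the limit on the mean count through L6D6 and P0D, so this rise is not independent of the choice of members. The transcripts moved in opposite directions at L6D6, XR_002697156.1 with a log2 change of -1.10 (SE 0.24, edgeR adjusted p = 0.00663) and XR_002697157.1 with 1.48 (SE 0.41, edgeR adjusted p = 0.0226). The call for XR_002697157.1 was lost when L6D4-2, L6D4-3, L6D6-1 or L6D6-2 was left out (adjusted p 0.0659 to 0.0845), and that for XR_002697156.1 under library totals (adjusted p = 0.175). The summed count of the gene did not pass at this step (log2 change -0.50, SE 0.22, edgeR adjusted p = 0.134).

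In LOC111360913 the sum likewise missed the threshold at L6D6 (log2 change 0.43, edgeR adjusted p = 0.0915) while transcripts passed. XR_002697178.1 held 1.44%, 3.11% and 3.92% of the member counts at L6D4, 15.5%, 16.3% and 15.0% at L6D6 and 20.5%, 21.6% and 22.6% at P0D, and no stage overlapped another. XR_002697176.1 had no count at L6D4 and stood at 21.7, 30.4 and 26.3 CPM at L6D6 and 39.5, 35.7 and 27.2 CPM at P0D, at least 72.1-fold and 93.01-fold above the floor. It likewise passed the limit on the mean count through the later stages. The main transcript XR_002697175.1 averaged 941 ± 149.8, 1025 ± 31.8 and 932 ± 214 CPM at the stages in order (mean ± SD, n = 3; edgeR adjusted p = 0.825 for any difference). XR_002697174.1 varied widely within L6D4 and L6D6, at 0.295, 1.05 and 97.8 CPM at L6D4, 184, 63.8 and 0.832 CPM at L6D6 and 84.7, 95.96 and 124 CPM at P0D, so that L6D4 and L6D6 each held libraries near 0 and others above 60 while all 3 P0D libraries were high. The test for any difference did not pass (edgeR adjusted p = 0.64) and passed without L6D4 replicate 3 (adjusted p = 0.0381).

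In the other 2 genes both transcripts had like log2 changes at L6D6. In LOC111350173 the summed level fell at L6D6 (log2 change -1.78, SE 0.35, edgeR adjusted p = 0.00349), from 18.0, 26.3 and 18.7 CPM at L6D4 to 5.09, 4.91 and 8.32 at L6D6, and stood at 9.11, 13.0 and 18.4 at P0D. The transcripts XR_002696714.1 and XR_002696715.1 were each called lower at L6D6 (log2 changes -1.95 and -1.68, edgeR adjusted p = 0.0306 and 0.0104), and their shares overlapped between all stages. The call for XR_002696714.1 was lost without any 1 L6D4 replicate, without L6D6 replicate 1 or 2 and under library totals (adjusted p 0.0605 to 0.132), and that for XR_002696715.1 without L6D4 replicate 2, without L6D6 replicate 1 and under library totals (adjusted p 0.0536 to 0.0807). In LOC111349542 the share of XR_002696682.1 was 32.5%, 34.3% and 28.6% at L6D4, 35.3%, 25.9% and 34.6% at L6D6 and 35.3%, 41.0% and 51.4% at P0D, with the highest value in P0D-3. The log2 change of the sum at L6D6 was 0.68 (SE 0.23, edgeR adjusted p = 0.052), XR_002696683.1 was called higher there (log2 change 0.68, edgeR adjusted p = 0.0148), and that call was lost without L6D4 replicate 3, without L6D6 replicate 2 and with TMM factors from annotated transcripts alone (adjusted p 0.053 to 0.0679). The gene overlaps the coding gene LOC111349541.

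**Figure D4:**
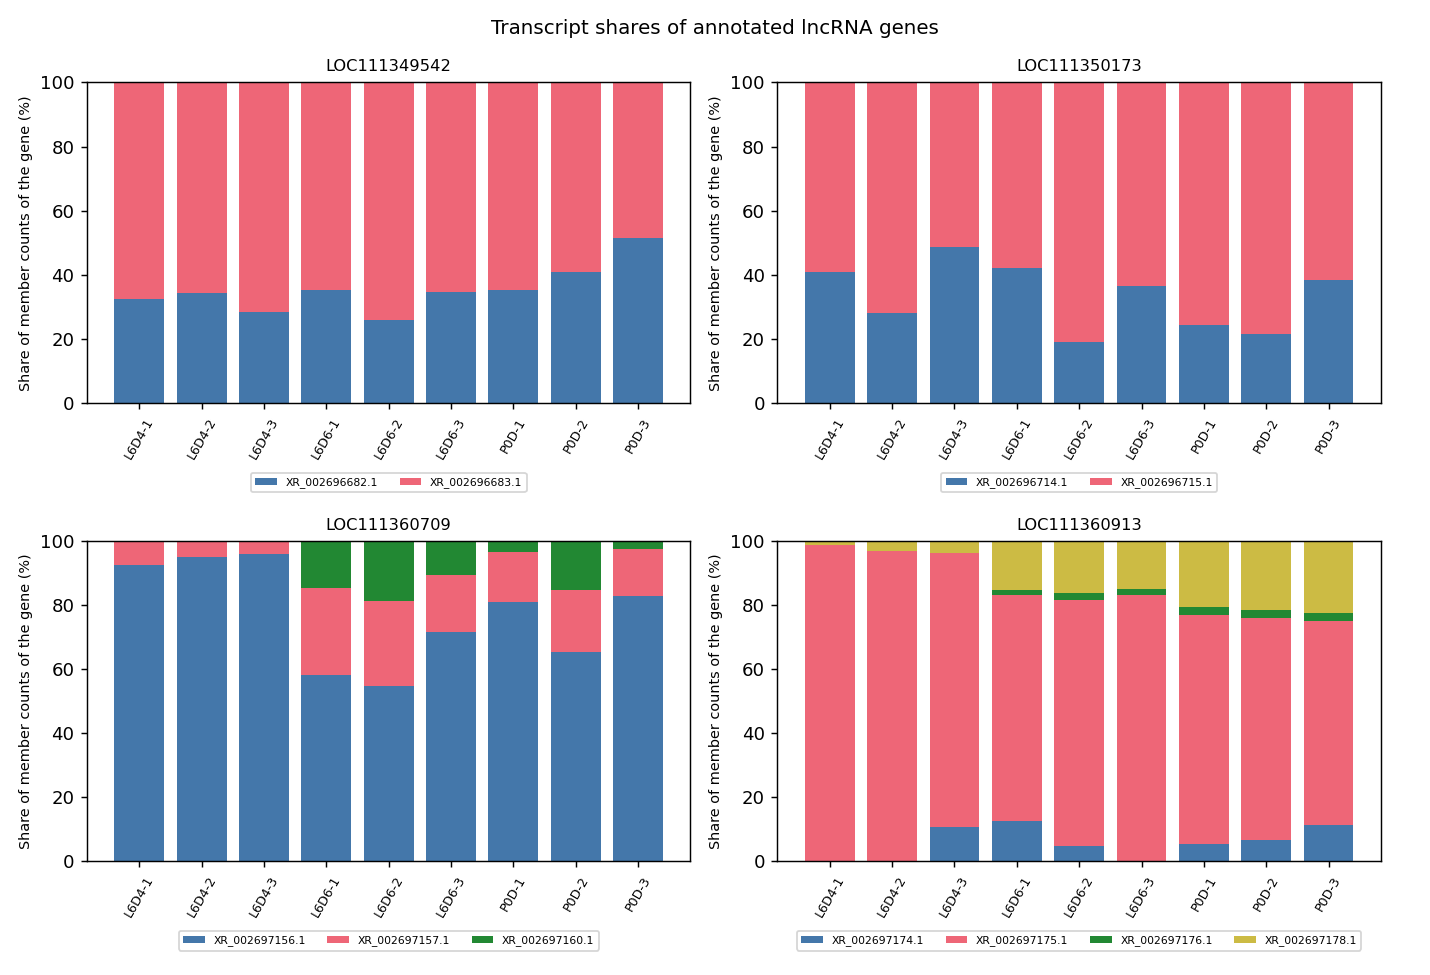
Share of each transcript in the member counts of its gene, in percent, for each library of the 4 genes with 2 or more member transcripts. In LOC111360709 and LOC111360913 the transcript that held most of the counts at L6D4 held less at L6D6, while in LOC111350173 shares varied within stages.

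Members were also grouped by their place relative to coding genes. Between L6D4 and L6D6, 7 of 27 tested members that overlap a coding gene changed, 2 higher and 5 lower, and 22 of 70 that lie between coding genes changed, 12 higher and 10 lower (25.9% and 31.4%, against 22.1% of all lncRNAs). Between L6D4 and P0D, 6 of 27 overlapping members changed, all lower, and 21 of 70 that lie between coding genes changed, 11 higher and 10 lower (22.2% and 30%, against 26.6% of all lncRNAs, 12.5% lower). With rises and falls counted alike, both shares between L6D4 and P0D lay near the 26.6% of all lncRNAs. By direction, the overlapping members gave 22.2% lower and 0 higher, against 12.5% lower and 14.1% higher of all lncRNAs. These counts were not tested against each other. Of the 7 overlapping members called at L6D6, 1 changed at least 2-fold, against 17 of the 22 between genes and 319 of the 423 called over all lncRNAs. Beyond Snoo, 11 members overlap a coding gene with a name, and only XR_002697380.1 of LOC111364990, which overlaps the ubiquitin ligase gene Ubr3, was called in a pairwise comparison. It stood at 43.4, 33.3 and 37.5 CPM at L6D4, 24.9, 21.7 and 21.3 CPM at L6D6 and 23.2, 20.4 and 19.9 CPM at P0D, with a log2 change of -0.75 at L6D6 (SE 0.21, edgeR adjusted p = 0.0234). That call was lost without L6D4 replicate 1 or 3, without any L6D6 replicate and under library totals (adjusted p 0.0533 to 0.3).

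The calls of members that share a place in the assembly were set side by side. Between LOC111349823 and LOC111350007 lie XR_002696705.1, which fell at L6D6 as given above, and XR_002696697.1. The latter was not called there (log2 change 0.26, SE 0.65, edgeR adjusted p = 0.813), and the difference between them was not tested. LOC111347957 and LOC111348396 both overlap LOC111347950. XR_002696602.1 of the first fell at L6D6 as given above, while XR_002696625.1 of the second averaged 227 ± 20.7, 186 ± 23.4 and 140.5 ± 22.4 CPM at the stages in order (mean ± SD, n = 3) with a log2 change of -0.29 at L6D6 (SE 0.18, edgeR adjusted p = 0.285). Both were called lower at P0D than at L6D4, by log2 changes of -2.32 (SE 0.29, edgeR adjusted p = 1.24e-04) and -0.69 (SE 0.18, edgeR adjusted p = 0.0128), the latter lost without L6D4 replicate 3 (adjusted p = 0.0532) and under library totals (0.19). The difference between the 2 at L6D6 was not tested. Between the coding genes LOC111364764 and LOC111364629 lie 6 member genes, of which LOC111364825 (XR_002697366.1) was called lower at L6D6 and LOC111364847 (XR_002697372.1) lower at P0D than at L6D4. XR_002697366.1 stood at 61.5, 58.2 and 73.9 CPM at L6D4, 28.96, 28.1 and 36.6 CPM at L6D6 and 22.1, 24.5 and 14.1 CPM at P0D, with a log2 change of -1.67 over the interval (SE 0.25, edgeR adjusted p = 4.30e-04). Its call at L6D6 (log2 change -1.05, SE 0.24, edgeR adjusted p = 0.00922) was lost without L6D6 replicate 2 (adjusted p = 0.0511) and under library totals (0.0641), and that of XR_002697372.1 (edgeR adjusted p = 0.0392) in 10 alternatives, among them those that left out L6D4-1, L6D4-3, L6D6-1, L6D6-2 or any library of P0D (adjusted p 0.0504 to 0.162). The other 4 were not called in any pairwise comparison. Between LOC111351518 and kin17, XR_002696766.1 was called higher at L6D6 (log2 change 1.04, SE 0.33, edgeR adjusted p = 0.0394). That call was lost under the replicate block and without L6D4-1, L6D4-2, P0D-2 or any library of L6D6 (adjusted p 0.0597 to 0.116). XR_002696776.1, in the same place, was not called (log2 change 0.66, SE 0.23, edgeR adjusted p = 0.0605).

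Transcripts with identical values in all libraries cannot be told apart in this table, and 6 members each stood for 2 to 13 rows. XR_002696595.1 stood for 13 transcripts of 13 genes and XR_002696848.1 for 7 transcripts, 5 of which had a RefSeq gene. XR_002696848.1 stood at 53.5, 45.9 and 59.3 CPM at L6D4, 92.2, 98.7 and 79.8 CPM at L6D6 and 77.5, 74.8 and 57.02 CPM at P0D, and was called higher at L6D6 (log2 change 0.77, SE 0.20, edgeR adjusted p = 0.0179). That call was lost when L6D4-1, L6D4-2, L6D6-1 or L6D6-2 was left out (adjusted p 0.0502 to 0.0782). Since the rows hold 1 set of values, these are levels of the set and of no single gene, and none of the other 5 sets was called in a pairwise comparison.

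At the other end were tested members called in no pairwise comparison. The 5 with the narrowest range of stage means, among those with a mean count of at least 100, were XR_002697128.1 of LOC111359871, XR_002697231.1, XR_002696874.1 of LOC111353389, XR_002697198.1 of LOC111361071 and XR_002696918.1 of LOC111354314. XR_002697128.1 stood at 57.03, 71.9 and 65.8 CPM at L6D4, 69.2, 67.6 and 54.6 CPM at L6D6 and 73.4, 70.4 and 49.2 CPM at P0D, and the stages overlapped fully. The adjusted p for any difference was 0.934 to 0.996 for these 5 in the edgeR test, which does not show that their levels were equal.

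Single libraries decided a few values. XR_002696806.1 stood at 7.68, 7.71 and 11.1 CPM at L6D4, 7.51, 122 and 45.2 CPM at L6D6 and 11.04, 17.1 and 10.8 CPM at P0D. It was called higher at L6D6 (log2 change 2.74, SE 0.73, edgeR adjusted p = 0.0185) although L6D6 replicate 1 lay below the L6D4 libraries, and the call was lost without L6D6 replicate 2 (adjusted p = 0.104), without L6D4 replicate 1 or 2 (0.0665 and 0.0633) and in limma-voom (0.172). XR_002696801.1 had its 2 highest values in the same 2 libraries, at 85.8, 335 and 253 CPM at L6D6 against 73.6, 73.6 and 92.2 CPM at L6D4. XR_002696700.1 of LOC111349994, which was not tested, stood at 0, 0.701 and 0.506 CPM at L6D4, 0.268, 2.34 and 1.94 CPM at L6D6 and 12.97, 9.70 and 1.51 CPM at P0D. It passed the limit on the mean count through P0D, so its higher level there is not independent of the choice of members. P0D-3 lay within the range of the L6D6 libraries. The other untested member, XR_002696593.1, had its mean above the limit chiefly through L6D6, at 2.14, 5.61 and 8.04 CPM.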

How the data were processed

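RNA of testes at 3 stages, 3 libraries each, was sequenced after removal of ribosomal RNA, with strands marked by dUTP, per the labels' protocols. The authors deposited estimated counts (expected counts) per lncRNA transcript, not scaled to depth, and per library 62.3% to 66.3% of values, zeros included, are exactly whole. The submitters' processing notes list, without roles, DESeq2 1.6.3, StringTie 1.3.4, HISAT2 2.1.0, Bowtie2 2.2.8 and fastp 0.18.0. Which program counted the reads, on which build and annotation and with which lncRNA filters the sources used here do not say.

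The plan had assumed whole counts, so values were rounded. All 2476 transcripts entered a quasi-likelihood fit in edgeR 4.0.16 under R 4.3.3, scaled by TMM factors after filterByExpr. The stages shared 1 estimate of spread (common biological coefficient of variation 0.28, 6 residual degrees of freedom). It tested 1913 transcripts and left out 563, and p-values were adjusted over all 1913 by Benjamini and Hochberg and called under 0.05. For CPM, counts were divided by the tested total and the TMM factor of the library. They are thus relative to the lncRNA counts after TMM scaling and cannot be read as percentages of a library. A stage with no count was given a floor of 3 counts over its 3 libraries, and ratios from 1 to 3 counts have exact binomial 95% intervals, both covering counting error only. Libraries of a stage differed by more than sampling noise in every pair (chi-square of 15.4 to 125.5 for each degree of freedom). Correlations used log2 CPM with a prior count of 2. Each SE of a log2 change is the size of that change divided by the square root of its F statistic. It was thus derived from the test, and is rough where a stage had almost no counts.

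Alternatives were DESeq2 1.42.0, limma-voom (limma 3.58.1), other scalings, no filter, identical rows collapsed, fewer stages in the fit, the replicate block and each library left out. Tests were also run on simulated data. Shares of transcripts were compared with exact permutation tests (scipy 1.17.1).

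The members, lists and tests were chosen with earlier results of these data known. Members were named by rule: the 5 with the most counts, in each pairwise comparison the 10 largest rises and falls among called members whose levels do not overlap, the 3 largest excesses and deficits at L6D6, transcripts of genes with 2 or more members, the 5 steadiest, those at the limit of 10, and called members that overlap a named coding gene. Others were chosen after their values were seen. Gene names and neighbours come from the RefSeq table alone, without a limit on distance. Promoter sequences were not used here.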

Additional observations from a re-analysis of the deposited data

How the results depend on the processing

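For L6D6 against L6D4 the count of called members was 55, with 36 to 62 when 1 library was left out and 46 to 60 in the other alternatives. For P0D against L6D6 it was 10, with 8 to 14 and 7 to 15, and DESeq2 gave 15. For P0D against L6D4 it was 54, with 41 to 58 and 45 to 61. For any difference it was 60, with 46 to 70 when 1 library was left out. For L6D6 against the mean of the other stages it was 30, with 16 to 28 when 1 library was left out. The number of transcripts whose shares did not overlap between L6D4 and P0D was 8, with 8 to 10. The mean share of library counts in members was 34.2%, and 10.8% without the member with the most counts. Of 80 results on 46 named members, 67 had a call, 15 of these lost it in some alternative and 0 reversed, and library totals as the only scaling changed the side of the threshold for 12, the most of any alternative.

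The main fit did not use replicate numbers as pairs. Deviations of libraries with the same number correlated at -0.155 to 0.0886 and those with different numbers at -0.223 to 0.183. These are deviations from means of 3 libraries, so the check cannot exclude a pairing. With the replicate number as a block, the counts were 46, 8, 48, 50 and 25 in the order given above for the 5 comparisons.

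The mean count of 103 members lay under 100, where the counting error is largest. Tests on promoter sequences and on position by strand, which had been planned, were not run.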
